A study of Homo sapiens with 4 samples.

Results

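The 10 genes described here encode enzymes that make bile acids from cholesterol or join them to an amino acid: CYP7A1, CYP8B1, CYP27A1, CYP7B1, CYP39A1, HSD3B7, AMACR, ACOX2, SLC27A5 and BAAT. They were chosen by name as enzymes of bile acid synthesis or conjugation, with the aldo-keto reductases left out, by a rule that reads no measured value. They are 10 of the 46427 genes measured. The gene tables carry NCBI Gene numbers, and all 10 members were found by their number in the RefSeq annotation. RNA was sequenced from Huh7 and HepG2, a pair of established human liver tumour lines that the submitters both label hepatocellular carcinoma; HepG2 is often classed as a hepatoblastoma line. COP1, a ubiquitin ligase, was knocked down in each line by lipid transfection of 20 nM COP1-siRNA, the control cells were given NC-siRNA (negative control) in its place, and both were collected 48 hours later. No untransfected cells were among the samples used here. The submitters give the genotype as wild type for NC-siRNA and as COP1 knockdown for COP1-siRNA, and they place all 4 libraries in the same batch. There was 1 library for each line and siRNA, so the differences below have no replicate to check them against and carry no p-value.

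Bile acids are the main route by which the body removes cholesterol, and the liver is the organ that makes them. In the classic pathway CYP7A1 hydroxylates cholesterol in the first and rate-limiting step, HSD3B7 then oxidises the steroid ring, and CYP8B1 adds the hydroxyl group that directs the product towards cholic acid. In the acidic pathway CYP27A1 oxidises the side chain first and CYP7B1 hydroxylates the resulting oxysterols, while CYP39A1 acts on a further oxysterol. AMACR and ACOX2 act in peroxisomes, where the side chain is shortened. SLC27A5 activates bile acids, and BAAT joins them to glycine or taurine. The bile acid receptor FXR, encoded by NR1H4, represses the pathway through SHP, encoded by NR0B2, and through the hormone FGF19.

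Values are TPM, a measure of transcript abundance that is scaled to gene length and to the library, so that levels can be set beside each other between genes. Changes are log2((TPM + 1)/(TPM + 1)), which understates the change of genes with low values, and a gene entered a comparison where at least 1 of its libraries reached 1 TPM. In Huh7 the level of COP1 itself was 19.7 TPM in the control library and 6.18 TPM after COP1-siRNA. In HepG2 it was 26.9 and 16.1 TPM, so COP1 was lower with its siRNA in both lines, by 1.53 on the log2 scale in Huh7 and by 0.71 in HepG2. The HepG2 change was short of 2-fold. Coverage was also rescaled so that each library sums to the same total. On it COP1 was at 3.84 and 1.18 in Huh7 and at 5.00 and 3.05 in HepG2, NC-siRNA first. With 1 added, COP1 was lower by 1.15 in Huh7 and by 0.57 in HepG2. These coverage values are below the TPM of COP1, so the added 1 weighs more on them. The number of reads is unknown, but the ratio of coverage to FPKM put the COP1-siRNA library at 1.13 times the depth of its control in Huh7 and at 1.27 times in HepG2. All 8 hepatocyte markers (ALB, APOA1, APOB, TTR, SERPINA1, TF, FGB and HNF4A) were at 1 TPM or more in every library, with a summed level of 11275 to 12865 TPM in Huh7 and 2302 to 2684 TPM in HepG2. Of 9 markers of other cell types (PTPRC, CD68, PECAM1, VWF, COL1A1, COL3A1, DCN, KRT7 and KRT19), 3 reached 1 TPM in each library. KRT19 was at 200 and 207 TPM in Huh7 and at 53.2 and 76.1 TPM in HepG2, NC-siRNA first. CD68 was at 58.2 and 56.4 TPM in Huh7 and at 15.6 and 17.3 TPM in HepG2. The third was PECAM1 in Huh7, at 5.08 and 7.36 TPM, and COL1A1 in HepG2, at 2.33 and 2.47 TPM. PTPRC and DCN were listed at 0 in all 4. The summed level of the 9 was 263 to 271 TPM in Huh7 and 71.4 to 96.3 TPM in HepG2. In such bulk samples, fewer cells of a type and less RNA per cell cannot be told apart.

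Promoter sequence was at hand for 6 members, and 3 of them are printed because their levels separate most clearly: CYP39A1 was higher in Huh7, SLC27A5 was higher in HepG2, and HSD3B7 was almost level across the 4 libraries. Each runs 5′ to 3′ on the gene's own strand from 250 bases before to 50 bases after the annotated start, as given by RefSeq for GRCh38.p14, with CG pairs in capitals. CYP39A1 is read on the minus strand at chr6:46652769-46653068, SLC27A5 on the minus strand at chr19:58511943-58512242 and HSD3B7 on the plus strand at chr16:30984957-30985256.
CYP39A1: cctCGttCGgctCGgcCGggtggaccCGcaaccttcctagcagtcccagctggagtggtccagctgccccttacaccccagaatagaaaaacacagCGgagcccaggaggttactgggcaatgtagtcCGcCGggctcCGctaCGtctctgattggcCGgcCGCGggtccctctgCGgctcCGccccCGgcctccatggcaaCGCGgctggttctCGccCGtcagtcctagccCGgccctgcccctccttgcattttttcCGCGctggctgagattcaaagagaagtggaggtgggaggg
SLC27A5: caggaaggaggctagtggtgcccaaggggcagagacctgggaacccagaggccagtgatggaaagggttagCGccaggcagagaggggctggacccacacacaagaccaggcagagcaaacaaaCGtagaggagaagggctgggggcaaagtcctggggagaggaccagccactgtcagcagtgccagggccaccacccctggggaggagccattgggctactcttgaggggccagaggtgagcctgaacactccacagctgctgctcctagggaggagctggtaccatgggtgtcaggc
HSD3B7: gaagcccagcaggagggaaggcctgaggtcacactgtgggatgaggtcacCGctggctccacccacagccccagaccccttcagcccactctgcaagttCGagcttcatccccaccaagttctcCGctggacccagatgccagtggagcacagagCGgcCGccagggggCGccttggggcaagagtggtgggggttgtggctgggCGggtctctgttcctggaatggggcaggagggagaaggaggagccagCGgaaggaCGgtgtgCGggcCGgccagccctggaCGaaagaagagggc

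The CYP39A1 stretch held 23 CG pairs, the HSD3B7 stretch 12 and the SLC27A5 stretch 2. The median over 35116 promoters of the same length was 14, with quartiles of 4 and 28. At most 23 pairs were found in 66.1% of promoters, at most 12 in 48.3% and at most 2 in 18.2%. The letters AGGTCA, the half-site that many nuclear receptors recognise, occurred 2 times over both strands of the HSD3B7 stretch, whereas 13.8% of promoters held it at least once and 1.38% held it 2 or more times. Neither the CYP39A1 nor the SLC27A5 stretch held it, which says only that these letters are absent from these windows. Among the other promoters, CYP27A1 had 29 CG pairs, AMACR had 20, and each of the annotated starts of BAAT had 1, with no AGGTCA in CYP27A1 or AMACR and 1 AGGTCA at the second BAAT start. These matches are a description of sequence and not of binding.

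CYP27A1 and HSD3B7 were expressed at nearly the same level in both lines. CYP27A1, the mitochondrial sterol hydroxylase that opens the acidic pathway, lies on the plus strand of chromosome 2 from 218781733 to 218815293 (GRCh38, NCBI Gene 1593). Its level was 28.0 TPM in Huh7 with NC-siRNA, 27.3 TPM in Huh7 with COP1-siRNA, 26.9 TPM in HepG2 with NC-siRNA and 32.2 TPM in HepG2 with COP1-siRNA. It had the highest TPM of the 10 enzymes in every library, between the 63.4th and 69.0th percentile of genes at 1 TPM or more. HSD3B7, the dehydrogenase that acts on the products of both pathways, lies on the plus strand of chromosome 16 from 30985189 to 30989152 (NCBI Gene 80270). It was at 10.2 and 9.93 TPM in Huh7 and at 11.5 and 11.6 TPM in HepG2, with NC-siRNA and COP1-siRNA respectively. On the log2(TPM + 1) scale no other member above 1 TPM varied so little over the 4 libraries.

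**Figure D1:**
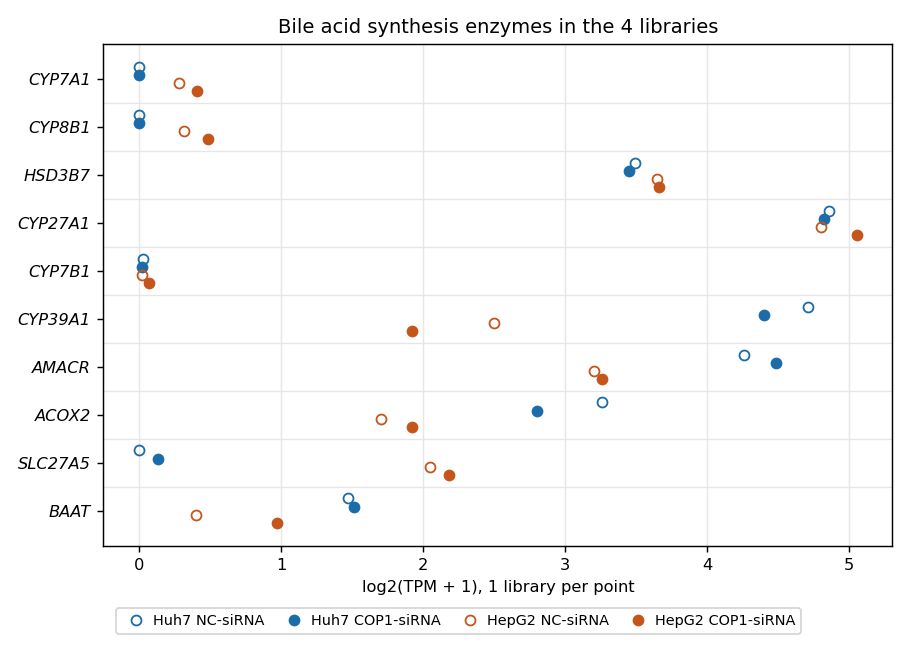
Level of each bile acid synthesis enzyme on the log2(TPM + 1) scale (horizontal axis), with 1 point per library, blue for Huh7 and orange for HepG2, open for NC-siRNA and filled for COP1-siRNA. CYP7A1, CYP8B1 and CYP7B1 lie near 0 in all 4 libraries, CYP39A1, AMACR and ACOX2 lie further right in Huh7, and SLC27A5 lies further right in HepG2.

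The hydroxylases that define the classic pathway were at or near 0. CYP7A1, the rate-limiting enzyme, was listed at 0 in both Huh7 libraries and stood at 0.211 and 0.328 TPM in HepG2 with NC-siRNA and COP1-siRNA. CYP8B1, a minus-strand gene of chromosome 3 spanning 42872192 to 42875879 (NCBI Gene 1582), was likewise listed at 0 in both Huh7 libraries and stood at 0.243 and 0.397 TPM in HepG2. Both genes therefore had signal in HepG2 alone, and both levels were low. The table's CYP8B1 coverage times its span of 3688 bases came to 2232 aligned bases in HepG2 with NC-siRNA and 4577 with COP1-siRNA, in a library of 1.27 times the depth. Since neither gene reached 1 TPM in any library, they entered no comparison.

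CYP7B1, the oxysterol hydroxylase of the acidic pathway, was at 0.0200 and 0.0107 TPM in Huh7 and at 0.0124 and 0.0501 TPM in HepG2, again NC-siRNA first. Its highest value, in HepG2 with COP1-siRNA, was not matched by its coverage. Rescaled so that each library sums to the same total, its coverage was 0.0116 in the control library and 0.0135 after COP1-siRNA. CYP7A1 and CYP7B1 are minus-strand genes of chromosome 8, at 58490178 to 58500163 (NCBI Gene 1581) and at 64586575 to 64798737 (NCBI Gene 9420). With CYP8B1 they form the 3 members under 1 TPM in all libraries.

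CYP39A1, the third oxysterol hydroxylase, was several times higher in Huh7 than in HepG2. The gene spans chromosome 6, minus strand, 46549580 to 46652849 (NCBI Gene 51302). Its level was 25.2 TPM in Huh7 with NC-siRNA, 20.2 TPM in Huh7 with COP1-siRNA, 4.65 TPM in HepG2 with NC-siRNA and 2.78 TPM in HepG2 with COP1-siRNA. Both Huh7 libraries were above both HepG2 libraries, and within each line the COP1-siRNA library was the lower. In Huh7 with NC-siRNA it ranked next to CYP27A1 by TPM, and in HepG2 with COP1-siRNA it was level with ACOX2.

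The peroxisomal enzymes were also higher in Huh7. AMACR, the racemase that turns the side chain into the form the oxidase accepts, was at 18.2 and 21.4 TPM in Huh7 and at 8.23 and 8.56 TPM in HepG2. The gene spans chromosome 5, minus strand, 33986165 to 34008050 (NCBI Gene 23600). A read-through gene on the same strand, C1QTNF3-AMACR, overlaps it and was listed at 0 in all 4 libraries. ACOX2, the branched-chain oxidase of the side chain, was at 8.57 and 5.96 TPM in Huh7 and at 2.25 and 2.78 TPM in HepG2. The gene spans chromosome 3, minus strand, 58505136 to 58537196 (NCBI Gene 8309), and the overlapping antisense gene LOC107984079 was at 0.0259 TPM in Huh7 with NC-siRNA and listed at 0 in the other libraries. For AMACR the COP1-siRNA library was the higher in each line, whereas for ACOX2 it was the lower in Huh7 and the higher in HepG2.

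The conjugation enzymes were low, and each was higher in a different line. SLC27A5, the ligase that couples bile acids to coenzyme A, is a minus-strand gene of chromosome 19, spanning 58498333 to 58512065 (NCBI Gene 10998). It was listed at 0 in the Huh7 control library and stood at 0.0963 TPM in Huh7 with COP1-siRNA, against 3.14 and 3.54 TPM in HepG2. Its antisense neighbour LOC105372485 was listed at 0 in Huh7 and was at 0.0852 and 0.222 TPM in HepG2. BAAT, the transferase that attaches glycine or taurine, is a minus-strand gene of chromosome 9, spanning 101360417 to 101385006 (NCBI Gene 570). It was at 1.77 and 1.85 TPM in Huh7 and at 0.316 and 0.959 TPM in HepG2. The pseudogene FYTTD1P1, which lies within BAAT on the same strand, was at 0.104 TPM or less in every library. Thus only BAAT reached 1 TPM in Huh7 and only SLC27A5 did in HepG2, although BAAT at 0.959 TPM in HepG2 with COP1-siRNA was just short of it.

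COP1-siRNA was compared with NC-siRNA within each line. Of the 10 enzymes, 6 entered in Huh7 (HSD3B7, CYP27A1, CYP39A1, AMACR, ACOX2 and BAAT), and none was past 2-fold in either direction. Across all 13000 genes that entered, 0.638% passed 2-fold upwards and 0.446% downwards, so a list of 6 genes would hold few calls at that rate. At 1.5-fold, which 2.80% of genes passed upwards and 2.68% downwards, the enzymes again gave 0 calls. The members' median change was −0.04 on the log2 scale, with 2 above 0 and 4 below, and the median of all genes was −0.001. On FPKM the split turned to 4 above and 2 below, with a median of 0.02, so no common direction was held.

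In Huh7 the enzymes did not share a direction. ACOX2 was lower with COP1-siRNA by a log2 change of −0.46, or 0.695 times its control TPM, and CYP39A1 by −0.31, or 0.801 times. AMACR was higher by 0.22, or 1.18 times its control. HSD3B7 (−0.04), CYP27A1 (−0.04) and BAAT (0.04) were close to 0. All 6 lay inside the range of −0.60 to 0.61 that held the central 95% of genes.

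In HepG2, 6 enzymes entered (HSD3B7, CYP27A1, CYP39A1, AMACR, ACOX2 and SLC27A5), and none was past 2-fold or, on the log2(TPM + 1) scale, 1.5-fold. Of all 14456 genes, 0.540% passed 2-fold upwards and 0.394% downwards, and at 1.5-fold the shares were 2.56% and 1.87%. The members' median change was 0.09, with 5 above 0 and 1 below, beside −0.008 for all genes, and the split was 3 and 3 on rescaled coverage. CYP39A1 was the member below 0, with a log2 change of −0.58 or 0.599 times its control TPM, just outside the central 95% of genes, which ran from −0.53 to 0.59. That it was short of 1.5-fold rests on the added 1, since with a pseudocount of 0.1 its change was −0.72, past that limit. On rescaled coverage it was at 1.71 with NC-siRNA and 1.10 with COP1-siRNA. With 1 added to these low values, the change was −0.37. The others were CYP27A1 at 0.25, ACOX2 at 0.22, SLC27A5 at 0.13, AMACR at 0.05 and HSD3B7 at 0.01, so their TPM differed by at most 1.24 times. BAAT did not enter because it stayed under 1 TPM, although its TPM was 3.04 times its control. All 8 hepatocyte markers were higher with COP1-siRNA in HepG2, with a median log2 change of 0.41 and FGB, a fibrinogen chain, past 2-fold at 1.05, whereas 7 of 8 were lower in Huh7 with a median of −0.09. On FPKM 8 of 8 were higher in HepG2, FGB no longer past 2-fold, and 5 of 8 lower in Huh7. Their part in the members' values was not tested.

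**Figure D2:**
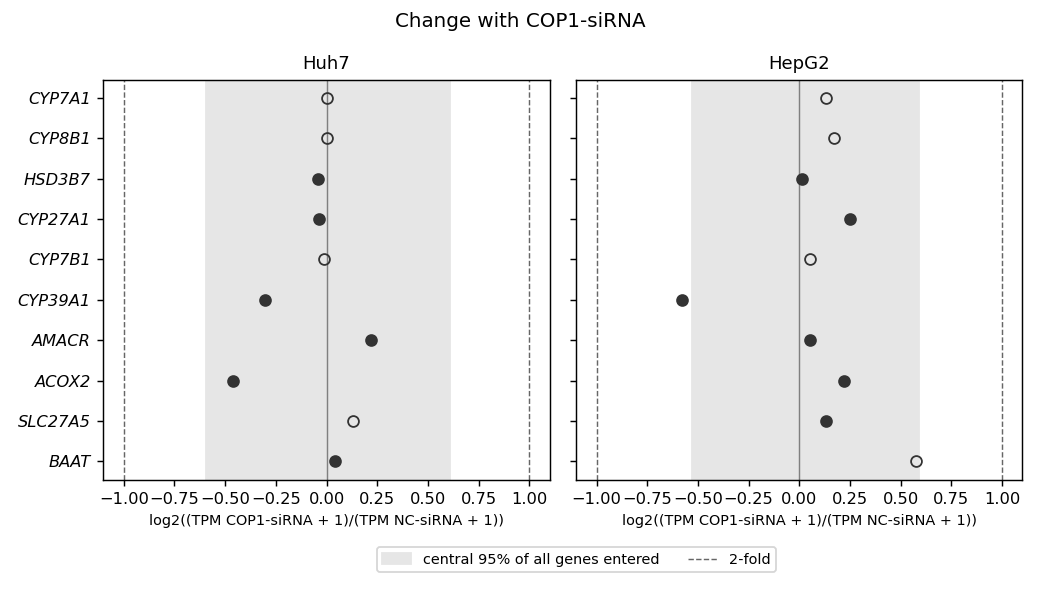
Log2 change of each enzyme with COP1-siRNA in Huh7 (left) and HepG2 (right), on the TPM + 1 scale, filled where the gene entered the comparison and open where it stayed under 1 TPM. Grey marks the central 95% of all genes that entered and dashed lines mark 2-fold; no enzyme reaches a dashed line, and of the filled points only CYP39A1 in HepG2 lies outside the grey.

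The responses of the lines were set side by side for the 5 enzymes that entered in both. CYP39A1 was lower with COP1-siRNA in each line, by a log2 change of −0.31 in Huh7 and −0.58 in HepG2. AMACR was higher in each, by 0.22 and 0.05, but on rescaled coverage its HepG2 change was −0.002. ACOX2 went from −0.46 in Huh7 to 0.22 in HepG2, a difference of 0.68 between the lines. For CYP27A1 the difference was 0.29 and for HSD3B7 0.05. With 1 library per condition, none of these differences between lines could be tested.

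The lines themselves were then compared under the same siRNA, Huh7 against HepG2. With NC-siRNA, 7 enzymes entered and 5 were past 2-fold. CYP39A1 (log2 difference 2.21), ACOX2 (1.56), BAAT (1.07) and AMACR (1.06) were higher in Huh7, by 5.41, 3.81, 5.61 and 2.21 times as plain TPM ratios. SLC27A5 was lower in Huh7, with a difference of −2.05 on the log2(TPM + 1) scale and no ratio, since it was listed at 0 there. Of 15055 genes, 14.7% passed 2-fold on the Huh7 side and 27.9% on the HepG2 side, so calls between the lines were common. HSD3B7 at −0.16 and CYP27A1 at 0.06 differed little. The enzymes' median was 1.06, against −0.37 for all genes.

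With COP1-siRNA the same 7 enzymes entered, and 3 were past 2-fold. CYP39A1 (2.48, or 7.24 times) and AMACR (1.23) were higher in Huh7, and SLC27A5 (−2.05) was lower. Of 15126 genes, 14.0% passed 2-fold on the Huh7 side and 26.0% on the HepG2 side. ACOX2 at 0.88 and BAAT at 0.54 were short of 2-fold on the log2(TPM + 1) scale. The plain ratio of ACOX2 was 2.14, and it passed 2-fold with a pseudocount of 0.1 and with median-of-ratios or upper-quartile scaling. By contrast, HSD3B7 (−0.21) and CYP27A1 (−0.23) were slightly lower in Huh7. The enzymes' median was 0.54, beside −0.35 for all genes. CYP39A1, AMACR and SLC27A5 thus passed 2-fold under both siRNAs. Summed over the 10 enzymes, the level was 92.0 and 86.7 TPM in Huh7 and 57.5 and 63.2 TPM in HepG2.

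**Figure D3:**
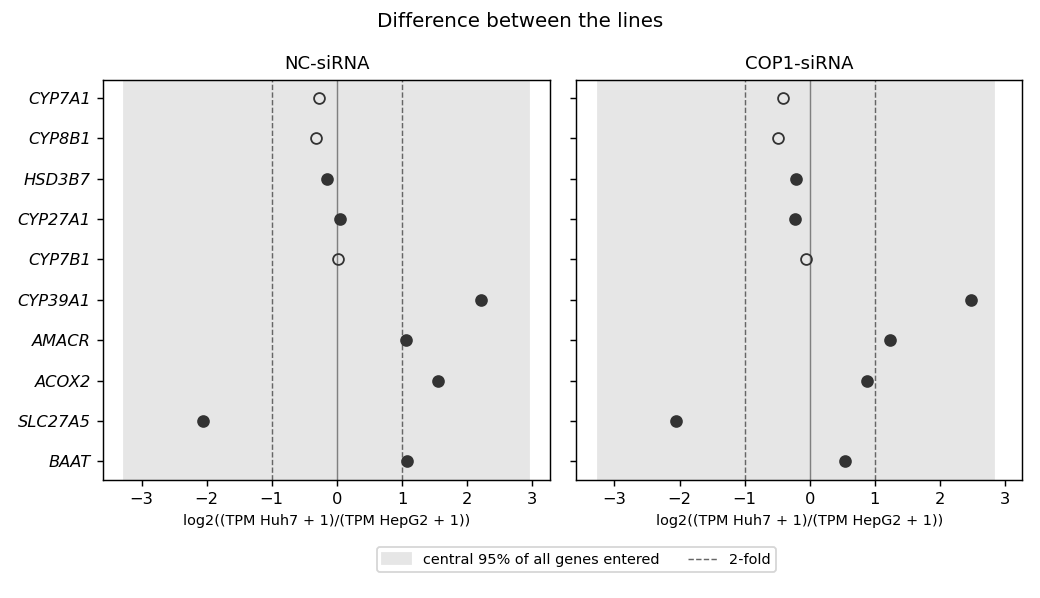
Log2 difference between Huh7 and HepG2 for each enzyme with NC-siRNA (left) and COP1-siRNA (right), on the TPM + 1 scale; points to the right are higher in Huh7, and open points stayed under 1 TPM. CYP39A1 lies furthest right and SLC27A5 furthest left in both panels, inside the grey central 95% of all genes.

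The scaling of the lines bears on the small differences. When the libraries were rescaled by the median of ratios, the median of all genes moved from −0.37 to −0.06 with NC-siRNA and from −0.35 to −0.06 with COP1-siRNA. The share of calls that were higher in Huh7 moved from 34.6% to 47.9% with NC-siRNA and from 35.0% to 48.4% with COP1-siRNA. Under that scaling HSD3B7 turned from lower to higher in Huh7, with differences of 0.15 and 0.09, and CYP27A1 with COP1-siRNA turned to 0.08. Upper-quartile scaling put HSD3B7 with NC-siRNA at 0.05, and on FPKM CYP27A1 with NC-siRNA was at −0.03. CYP39A1, AMACR and SLC27A5 did not turn under any scaling tried, nor did ACOX2 or BAAT.

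The coverage column gave a second view of the same libraries, since coverage is the mean read depth over a gene's bases. Coverage was rescaled so that each library summed to 1000000 and then divided by the TPM. The median gene gave 1.05 to 1.06. CYP39A1 gave 0.373 and 0.370 in Huh7 and 0.367 and 0.394 in HepG2, while the other 6 enzymes above 1 TPM gave 0.98 to 1.27. Outside the 10 enzymes a low ratio was not particular to CYP39A1. POR gave 0.0878 to 0.0890, COP1 0.186 to 0.195, SCP2 0.187 to 0.216 and NR1H4 0.281 to 0.291. Others were not low, such as HSD17B4 at 1.07 to 1.08 and KLB at 1.26 to 1.27. On rescaled coverage CYP39A1 in Huh7 with NC-siRNA was 9.40, which placed it after CYP27A1 (29.8), AMACR (21.7), HSD3B7 (11.8) and ACOX2 (9.53) rather than second. Its place among the enzymes therefore depended on the column read, and the reason for the ratio was not tested. The direction of its differences did not depend on it: its log2 change in rescaled coverage was −0.30 with COP1-siRNA in Huh7 and −0.37 in HepG2, and Huh7 was higher than HepG2 by 1.94 with NC-siRNA and by 2.01 with COP1-siRNA.

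**Figure D4:**
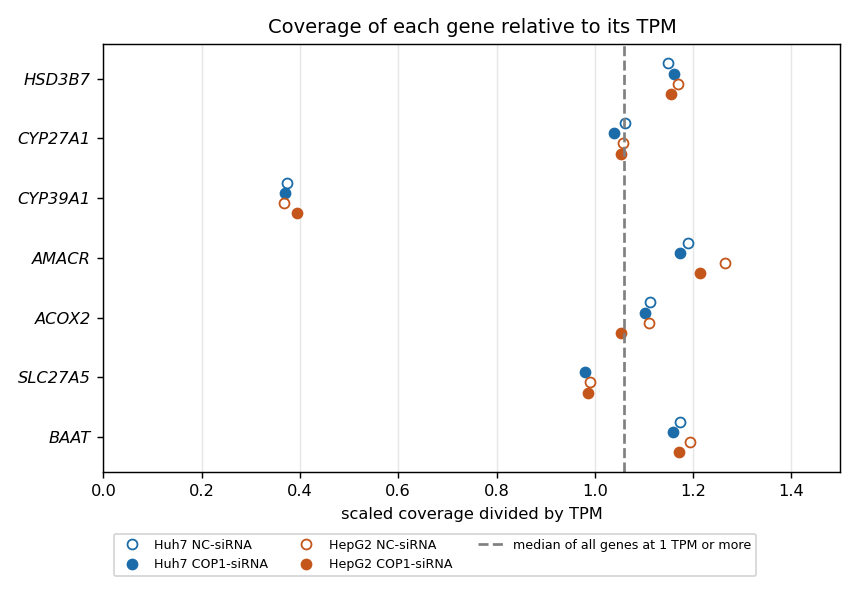
Rescaled coverage divided by TPM (horizontal axis) for the 7 enzymes that reached 1 TPM in at least 1 library, with 1 point per library above 0. The dashed line is the median of all genes at 1 TPM or more; CYP39A1 lies at 0.367 to 0.394 in all 4 libraries and the other enzymes lie close to the line.

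Other enzymes, carriers and partners of the pathway were counted from a list of 12: HSD17B4, SCP2, SLC27A2, ABCD3, ACOT8, CH25H, CYP46A1, STAR, POR, FDX1, FDXR and PEX5. None was past 2-fold with COP1-siRNA in either line, although 1 in HepG2 was with a pseudocount of 0.1. In Huh7, 9 entered and all 9 were below 0, with a median log2 change of −0.13, where 6519 of 13000 genes were below 0; on FPKM it was 7 of 9. In HepG2, 10 entered, 6 above and 4 below 0, with a median of 0.11. Between the lines with NC-siRNA, 2 were at least 2-fold higher in Huh7 and 3 lower, and with COP1-siRNA 1 was higher and 3 lower. These counts, out of 10 that entered, lie near the shares over all genes of 14.7% and 27.9% with NC-siRNA and 14.0% and 26.0% with COP1-siRNA. Median-of-ratios scaling left 2 higher and 1 lower with NC-siRNA. Named only to account for those counts, and chosen after their values were seen, the genes were SCP2, a peroxisomal thiolase, and POR, the electron donor of microsomal P450 enzymes, on the higher side with NC-siRNA, of which only SCP2 remained with COP1-siRNA. On the lower side under both siRNAs were SLC27A2, an acyl-CoA synthetase, STAR, a mitochondrial cholesterol carrier, and FDXR, which feeds electrons to mitochondrial P450 enzymes such as CYP27A1. CH25H and CYP46A1, which make other oxysterols, were listed at 0 in all 4 libraries.

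The reductases that follow HSD3B7 are not among the 10 enzymes but stand beside them in the pathway. AKR1D1, the reductase of the steroid ring, was at 1.75 and 6.27 TPM in Huh7 and at 1.52 and 4.12 TPM in HepG2. It was past 2-fold with COP1-siRNA in both lines, with log2 changes of 1.40 and 1.02, and it was the only gene of the pathway lists to be so. As plain TPM ratios AKR1D1 was at 3.58 times its control in Huh7 and 2.71 times in HepG2. In HepG2 the 2-fold call was lost on FPKM (0.73) and with median-of-ratios scaling (0.99), each with 1 added. With a pseudocount of 0.1 the HepG2 change was 1.38. AKR1C4, which acts after it, was at 5.67 and 4.93 TPM in Huh7, and was listed at 0 with NC-siRNA and at 0.310 TPM with COP1-siRNA in HepG2. HSD3B7, which acts just before them, differed by −0.04 and 0.01.

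Regulators of the pathway were counted from a list of 14: NR1H4, NR0B2, NR5A2, HNF4A, NR1H3, RXRA, PPARA, PPARGC1A, PROX1, ONECUT1, MAFG, FGFR4, KLB and FGF19. HNF4A is also among the hepatocyte markers. None was past 2-fold with COP1-siRNA in either line. In Huh7 12 of 14 were below 0, with a median of −0.25, and in HepG2 10 of 12 that entered were above 0, with a median of 0.22. In all genes 7468 of 14456 were below 0 in HepG2, so the regulators leaned to opposite sides in the 2 lines while all genes were near balance, and they did so under every scaling tried. The hepatocyte markers, which share HNF4A with the list, leaned the same way, with medians of −0.09 in Huh7 and 0.41 in HepG2, so the lean was not particular to the regulators.

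NR1H4, which encodes FXR, was at 93.2 and 77.3 TPM in Huh7 and at 6.11 and 7.57 TPM in HepG2. NR0B2, which encodes SHP, was at 5.80 and 3.01 TPM in Huh7 and at 22.5 and 23.8 TPM in HepG2. The receptor was thus the higher in Huh7, and its target SHP the higher in HepG2. FGF19, the hormone that signals through FGFR4 and KLB, was at 8.73 and 4.57 TPM in Huh7 and listed at 0 in both HepG2 libraries. With COP1-siRNA the log2 changes in Huh7 were −0.27 for NR1H4, −0.76 for NR0B2 and −0.80 for FGF19, and in HepG2 they were 0.27 for NR1H4 and 0.08 for NR0B2.

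**Figure D5:**
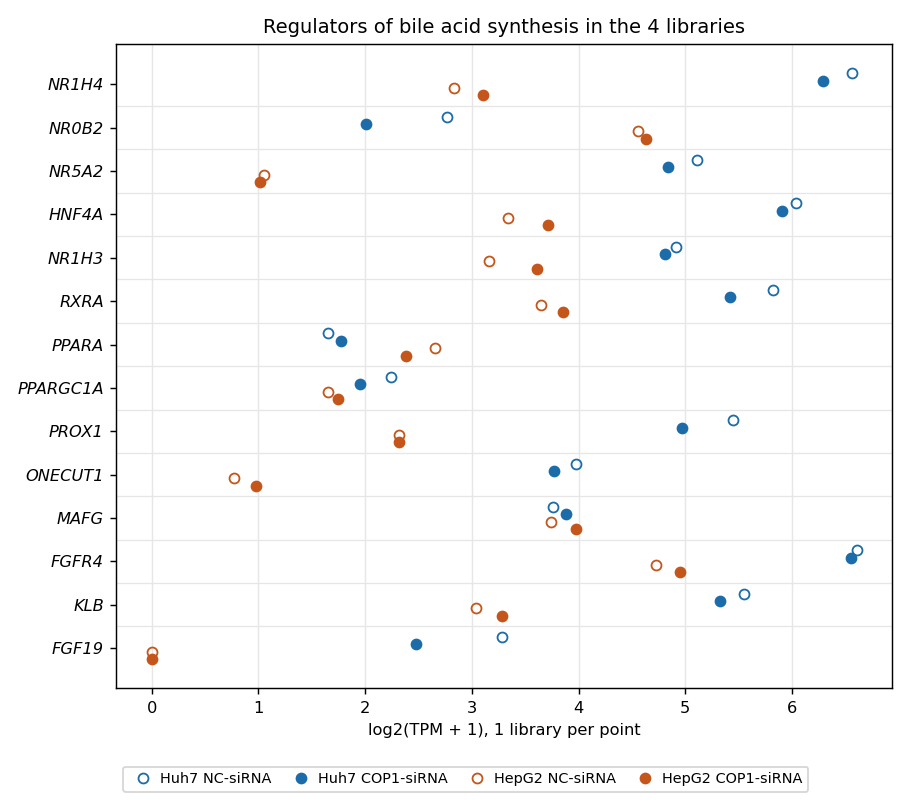
Level of 14 regulators of bile acid synthesis on the log2(TPM + 1) scale (horizontal axis), with 1 point per library, blue for Huh7 and orange for HepG2, open for NC-siRNA and filled for COP1-siRNA. Most regulators lie further right in Huh7, with NR0B2 and PPARA further right in HepG2 and FGF19 at 0 in both HepG2 libraries.

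Between the lines, 10 of the 14 regulators were at least 2-fold higher in Huh7 under each siRNA, and 2 with NC-siRNA and 1 with COP1-siRNA were at least 2-fold lower. Over all genes 14.7% and 14.0% were that much higher in Huh7 and 27.9% and 26.0% that much lower. The median log2 difference was 2.35 with NC-siRNA and 1.82 with COP1-siRNA. NR0B2 was lower in Huh7 under both siRNAs and PPARA, a fatty acid receptor named here after its value was seen, with NC-siRNA alone, a call that was lost on FPKM, on rescaled coverage and under both other scalings. The hepatocyte markers were higher in Huh7 as well, with a median of 2.66 with NC-siRNA and 2.13 with COP1-siRNA, and their part in the higher levels of CYP39A1, AMACR, ACOX2 and BAAT was not tested.

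For each enzyme that entered in both lines, the nearest profile was sought among the other members and the pathway lists, by Euclidean distance of log2(TPM + 1) centred over the 4 libraries. HSD3B7 lay nearest to FDX1, the mitochondrial ferredoxin, at 0.101, and CYP27A1 nearest to MAFG, a transcriptional repressor, at 0.123. Those profiles are nearly flat. ACOX2 lay nearest to POR at 0.325, as did AMACR at 0.363. CYP39A1 lay nearest to KLB, the co-receptor of FGF19, at 0.590, the largest nearest distance of the 5. These distances rest on 4 libraries and describe the profiles only.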

How the data were processed

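Human Huh7 and HepG2 RNA was sequenced from stranded poly(A) libraries, 1 per line and siRNA. The submitters' processing notes name FastQC 0.11.7, Trimmomatic 0.38, HISAT2 2.1.0, StringTie 2.1.3b, edgeR and GRCh38, without their settings; the annotation is not given in the sources used here. Each deposited table held coverage, FPKM and TPM per gene, all made by the authors. TPM and FPKM are scaled to length and library, and the TPM of each library summed to 1000000; coverage is not scaled to depth. No read counts were in the tables, so no interval could be computed.

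Of the 46427 genes, 96.3% had a RefSeq entry, through which symbols were assigned, and TPM was summed per gene number. Comparisons used log2(TPM + 1), a minimum of 1 TPM in at least 1 library compared and a 2-fold limit (1.5-fold as a second limit), computed over all genes. Groups were taken from the sample labels, and every per-sample value column was assigned to its library. All 10 members were named. Of the context lists, NR1H4, NR0B2, FGF19 and genes past 2-fold with COP1-siRNA were to be named. Other genes of the lists were given values beyond that, in part chosen after their values were seen. The nearest profiles were named as the distances gave them. The rule for the members reads names only, but the members and lists were chosen with earlier results of these data known. A further regulator, beyond those named, is not reported here. The code was tested on simulated data. Alternatives were a pseudocount of 0.1, FPKM, rescaled coverage, median-of-ratios and upper-quartile scaling, and no minimum or a minimum of 5 TPM. Others were the largest row of a repeated gene number in place of the sum, and the read-through gene added to AMACR. Python 3.11.15, numpy 2.4.6, pandas 2.3.3 and matplotlib 3.10.9 were used.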

Additional observations from a re-analysis of the deposited data

Results flagged for a closer look

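ACOX2 stood out because its change with COP1-siRNA had opposite directions in the 2 lines, with a log2 change of −0.46 in Huh7 and 0.22 in HepG2. On rescaled coverage the values were −0.48 and 0.17. Each rests on 1 library per condition, and the difference between the lines was not tested.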

How the results depend on the processing

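No member that entered was past 2-fold with COP1-siRNA in either line under any alternative run. At a minimum of 1 TPM, BAAT did not enter in HepG2, where its TPM was 3.04 times its control. No run combined the lower pseudocount with no minimum. With a pseudocount of 0.1, the log2 change of BAAT in HepG2 exceeded that in Huh7 by 1.29, against 0.53 in the main setting. Of the single member values recomputed, 210 kept their sign and side of 2-fold, 10 stayed short of 2-fold but changed sign (HSD3B7, CYP27A1 and, on rescaled coverage in HepG2, AMACR), 3 came past 2-fold and 3 fell short of it. No called value changed sign. Between the lines with NC-siRNA, 5 members were past 2-fold, and this became 3 on FPKM (2 higher, 1 lower) and 3 with a minimum of 5 TPM (3 higher, 0 lower). On FPKM, AMACR (0.88) and BAAT (0.60) fell short, as did AMACR on rescaled coverage (0.99). With COP1-siRNA, ACOX2 came past 2-fold with a pseudocount of 0.1 (1.07) and with median-of-ratios (1.14) or upper-quartile (1.05) scaling. The background moved most with the pseudocount and the unit: 83 higher and 58 lower genes in Huh7 became 249 and 141 with a pseudocount of 0.1 and 33 and 24 on FPKM, and 78 and 57 in HepG2 became 227 and 145, and 21 and 18. The same 1 was added on FPKM and rescaled coverage, which understates the change of genes with low values there as well. Beyond that, the cause of these shifts was not tested. No paired analysis was possible because the labels carry no replicate numbers and each condition had 1 library. Read numbers are unknown, so how well values under 1 TPM are measured cannot be stated.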
